A study of Mus musculus with 10 samples.

Results

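Gene expression was compared between induced embryonic Sertoli-like cells (ieSCs) that carry the number 2 in their name and those that carry the number 1, within each of the 2 kinds of fibroblast they were made from. The members were the 8 ieSC arrays of the 10 arrays in the series, chosen by the last character of the source name in the labels: 4 arrays of number 2 and 4 of number 1, with 2 of each from female tail tip fibroblasts (TTFs) and 2 of each from mouse embryonic fibroblasts (MEFs). The groups were therefore TTF-derived number 1, TTF-derived number 2, MEF-derived number 1 and MEF-derived number 2, with 2 arrays each, called array a and array b here as a name only. The 2 arrays of unconverted MEFs were not used. All 8 arrays held total RNA of cells from a congenic strain homozygous for R26-M2rtTA, an allele that makes the doxycycline-dependent activator from the Rosa26 locus. All carried the same transgenes, for the transcription factors Nr5a1, Wt1, Dmrt1, Gata4 and Sox9. All had been grown for 2 weeks in F12/DMEM without doxycycline, so the inducing drug had been withdrawn from every group. The labels do not say whether a number stands for a culture, a line, a clone, an animal or a conversion experiment, and they do not say whether the 2 arrays of a name came from separate cultures. The p-values below then measure the spread between these arrays, part of which may be technical.

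Sertoli cells support and enclose the germ cells inside the tubules of the testis, and embryonic Sertoli cells arise from the coelomic epithelium, a mesothelium-like layer that covers the early gonad. Fibroblasts that are converted into such cells have to lose a mesenchymal programme of matrix and contractile genes and take up an epithelial one with keratins and tight junctions. Cultures also differ in programmes that are not tied to a cell type, such as the interferon response, the acute phase response, sterol synthesis and the cell cycle.

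The values are log2 array intensities as deposited, on a scale where 1 unit is a doubling. Differences below are number 2 minus number 1 on that scale, ± SE from limma, with TTF-derived ieSCs first where a pair is given without names. Over the 23803 named features that passed the filter on dim features, arrays of the same name correlated at 0.996 to 0.998, and arrays of the same origin but different number at 0.987 to 0.989. The median absolute log2 difference was 0.0853 to 0.115 between arrays of a name and 0.179 to 0.205 between numbers within an origin. Of the variance among the 8 arrays, 76% lay on a first component that separated the origins and 11.6% on a second that separated number 2 from number 1 in both origins. A level under about 5 belongs to the dim end of an array (the 40th percentile lay between 4.99 and 5.02), and differences that end there are less certain in size.

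Levels of the 5 factors are given first. All groups carried the same transgenes, so these levels do not test the labels. Wt1, a zinc finger factor needed for Sertoli cells and their mesothelial precursors, stood at 16.73 and 16.85 in TTF-derived number 1, 17.24 and 17.40 in TTF-derived number 2, 16.71 and 16.78 in MEF-derived number 1 and 17.47 and 17.52 in MEF-derived number 2. Every number 2 array lay above every number 1 array, and Wt1 rose by 0.53 ± 0.08 (log2 ± SE, limma adjusted p = 0.00492) in TTF-derived and by 0.75 ± 0.08 (adjusted p = 0.00148) in MEF-derived ieSCs. Sox9, the testis-determining factor that acts after Sry, rose by 0.42 ± 0.09 in MEF-derived ieSCs (adjusted p = 0.0163), with -0.21 ± 0.09 in TTF-derived ieSCs (adjusted p = 0.126). Nr5a1, Dmrt1 and Gata4 passed the threshold in neither origin, with differences between -0.24 and 0.13. The features do not tell a transgene's transcript from that of the cell's own gene.

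Of 36 embryonic Sertoli markers, 26 were tested and 9 more had a feature that did not pass the filter, Amh, the hormone that marks fetal Sertoli cells, among them. In TTF-derived ieSCs 9 rose and 6 fell, and in MEF-derived ieSCs 5 rose (3 without MEF-derived array 1a, 1b or 2b) and 3 fell, with medians of -0.05 and 0.08. Wt1, a transgene factor, is a member of this list and was among the rises in both origins. Among all genes tested, 11.5% rose and 13.1% fell in TTF-derived and 9.78% rose and 11.3% fell in MEF-derived ieSCs. Dhh, the hedgehog ligand that fetal Sertoli cells secrete, differed by -0.05 ± 0.07 and -0.13 ± 0.07 in TTF-derived and MEF-derived ieSCs and was not called (adjusted p = 0.682 and 0.274). Ptgds, the prostaglandin D2 synthase of fetal Sertoli cells, stood at 13.85 and 13.84 in TTF-derived number 1, 15.35 and 15.60 in TTF-derived number 2, 12.90 and 12.92 in MEF-derived number 1 and 13.93 and 14.02 in MEF-derived number 2. It rose by 1.63 ± 0.09 and 1.06 ± 0.09 (adjusted p = 8.84e-05 and 0.000559). Sox8, a relative of Sox9 that acts with it, went the other way in both origins, with -0.70 ± 0.09 and -1.29 ± 0.09 (adjusted p = 0.00247 and 0.000256). Inhbb, the activin and inhibin beta B subunit, fell in both as well, with -1.47 ± 0.12 and -0.54 ± 0.12. Cyp26b1, the enzyme that clears retinoic acid from the fetal testis, changed by -1.67 ± 0.12 in TTF-derived ieSCs, against 0.08 ± 0.12 in MEF-derived ieSCs (adjusted p of the difference between origins 0.00113). Cst9, another of the 26, was 2.64-fold lower in TTF-derived and 1.69-fold higher in MEF-derived number 2. The mean log2 level of the 26 markers was 9.90 to 9.96 over the 4 TTF-derived arrays and 10.46 to 10.52 over the 4 MEF-derived arrays. Of 15 tested mature Sertoli markers, 4 rose and 4 fell in TTF-derived ieSCs (2 falling without TTF-derived array 1a, 1b or 2a). In MEF-derived ieSCs 8 of the 15 rose and 2 fell, and the medians were 0.05 in TTF-derived and 0.56 in MEF-derived ieSCs.

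With origin as a block, 2639 of the 15857 genes tested differed between number 2 and number 1 (16.6%, limma adjusted p under 0.05), 1241 higher in number 2 (7.83%) and 1398 lower (8.82%). At least a doubling was reached by 99 of the higher and 277 of the lower genes. Within TTF-derived ieSCs 3899 genes were called (24.6%), 1828 higher (11.5%) and 2071 lower (13.1%), and within MEF-derived ieSCs 3336 (21%), 1551 higher (9.78%) and 1785 lower (11.3%). These counts within an origin use a spread estimated over all names. With the arrays of an origin fitted alone, 2863 genes were called in TTF-derived and 2801 in MEF-derived ieSCs. The median difference over all genes was 0.00 in each comparison, and the median size of a difference was 0.14 in both origins together, 0.17 in TTF-derived and 0.16 in MEF-derived ieSCs. The fit over both origins takes the array as the unit: with the name as a random block 1529 genes were called. After averaging both arrays of a name, which leaves 1 residual degree of freedom between names, 0 were called by limma and 1612 had an unadjusted p under 0.05.

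Many genes separated the numbers in the same direction in both origins. Of the genes called within either origin, 1740 were called in both, which is 44.6% of the TTF-derived calls and 52.2% of the MEF-derived calls. Of these, 586 were higher in number 2 in both origins, 766 were lower in both and 388 went opposite ways, so that 77.7% moved in 1 direction. Across all genes the differences in the 2 origins correlated at 0.31, a description over genes that share arrays and are not independent. In 4679 genes (29.5%) both number 2 arrays lay beyond both number 1 arrays in the same direction in each origin. At the same time, the difference itself differed between origins in 2446 genes (15.4%, limma interaction contrast), with the TTF-derived difference above the MEF-derived one in 1240 (7.82%) and below it in 1206 (7.61%).

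**Figure D1:**
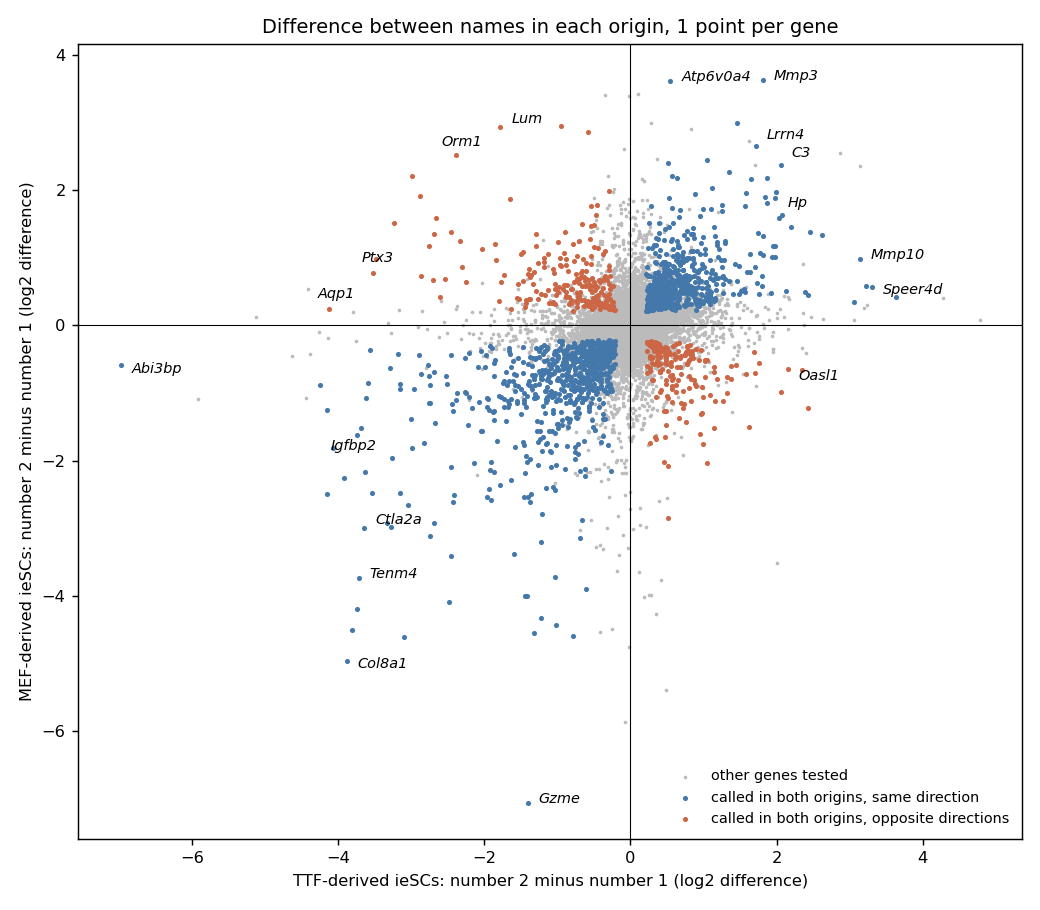
Log2 difference between number 2 and number 1 in TTF-derived ieSCs (horizontal axis) against that in MEF-derived ieSCs (vertical axis), 1 point for each of the 15857 genes tested. The 586 and 766 genes called in both origins in the same direction (blue) fill the upper right and lower left, and the 388 called in opposite directions (orange) the other corners.

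The 12 largest rises shared by both origins, among genes called over both, were Mmp3, Isx, C3, Lrrn4, Atp6v0a4, Mmp10, Saa3, Hp, Pard6g, Csta2, Speer4d and Lgr5. C3, the central complement component, stood at 16.71 and 16.62 in TTF-derived number 1, 18.65 and 18.79 in TTF-derived number 2, 15.61 and 15.57 in MEF-derived number 1 and 17.97 and 17.97 in MEF-derived number 2. All 4 number 2 arrays lay above all 4 number 1 arrays, across origins, and C3 rose 4.17-fold in TTF-derived (log2 2.06 ± 0.07, adjusted p = 1.41e-05) and 5.21-fold in MEF-derived ieSCs (2.38 ± 0.07, adjusted p = 1.42e-05). The 11 features of C3 gave 1.91 to 2.20 in TTF-derived and 2.38 to 2.59 in MEF-derived ieSCs. Hp, the plasma protein haptoglobin that binds free haemoglobin, stood at 12.31 and 12.25 in TTF-derived number 1, 14.27 and 14.27 in TTF-derived number 2, 11.30 and 11.25 in MEF-derived number 1 and 13.29 and 13.20 in MEF-derived number 2. Its rise was 2.00 ± 0.06 and 1.97 ± 0.06, and the difference between origins was not called (adjusted p = 0.885). Saa3, an acute phase serum amyloid A, rose by 1.87 ± 0.19 from a mean of 15.95 and by 2.19 ± 0.19 from a mean of 11.43 (adjusted p = 0.00081 and 0.000503). Csta2, a cysteine protease inhibitor of the stefin A family, rose by 1.98 ± 0.15 and 1.89 ± 0.15, and its 10 features gave 1.44 to 2.12 in either origin.

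Mmp3, stromelysin 1, had the largest rise in the fit over both origins, 2.72 ± 0.38 (adjusted p = 0.00412). It stood at 14.80 and 14.93 in TTF-derived number 1, 16.66 and 16.68 in TTF-derived number 2, 12.32 and 12.38 in MEF-derived number 1 and 16.39 and 15.57 in MEF-derived number 2. Number 2 lay above number 1 in each origin, by 1.81 ± 0.24 in TTF-derived and by 3.63 ± 0.24 in MEF-derived ieSCs, where arrays a and b of number 2 were furthest apart. Mmp13, a collagenase, rose by 1.66 ± 0.09 and 2.17 ± 0.09 (adjusted p = 7.9e-05 and 3.71e-05). Mmp10, stromelysin 2, rose by 3.14 ± 0.13 in TTF-derived and 0.99 ± 0.13 in MEF-derived ieSCs. Not all matrix proteases went this way: Mmp2, a gelatinase of fibroblasts, changed by -1.02 ± 0.18 and -1.77 ± 0.18, Mmp14, the membrane-bound protease that activates it, by -0.58 ± 0.07 and -0.85 ± 0.07, and Adamts5, an aggrecanase, by -1.69 ± 0.09 and -0.89 ± 0.09. Of the 22 matrix proteases and inhibitors tested, 4 rose and 12 fell in TTF-derived ieSCs, against 11.5% and 13.1% of all genes. In MEF-derived ieSCs 7 rose and 5 fell, against 9.78% and 11.3% of all genes, and 4 rose without MEF-derived array 1a, 1b or 2a.

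The other leading rises were in genes of mixed function. Isx, an intestinal homeobox factor, rose by 1.46 ± 0.12 and 2.99 ± 0.12, starting from dim means of 3.85 and 4.81. Lgr5, the receptor for R-spondins that augments Wnt signals, stood at 6.88 and 6.79 in TTF-derived number 1, 9.27 and 9.30 in TTF-derived number 2, 4.93 and 4.66 in MEF-derived number 1 and 6.22 and 6.14 in MEF-derived number 2. Number 2 was higher in each origin, by 2.45 ± 0.10 and 1.39 ± 0.10 (adjusted p = 2.21e-05 and 0.000244), from a dim level in MEF-derived number 1. Pard6g, a polarity scaffold of epithelial cells, rose by 2.62 ± 0.14 and 1.34 ± 0.14. Atp6v0a4, a subunit of the proton pump of acid-secreting cells, rose by 0.55 ± 0.10 in TTF-derived and 3.62 ± 0.10 in MEF-derived ieSCs, and Speer4d, of a rodent family expressed in the testis, by 3.30 ± 0.07 and 0.57 ± 0.07; a second Speer4d feature gave 0.10 and -0.28.

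**Figure D2:**
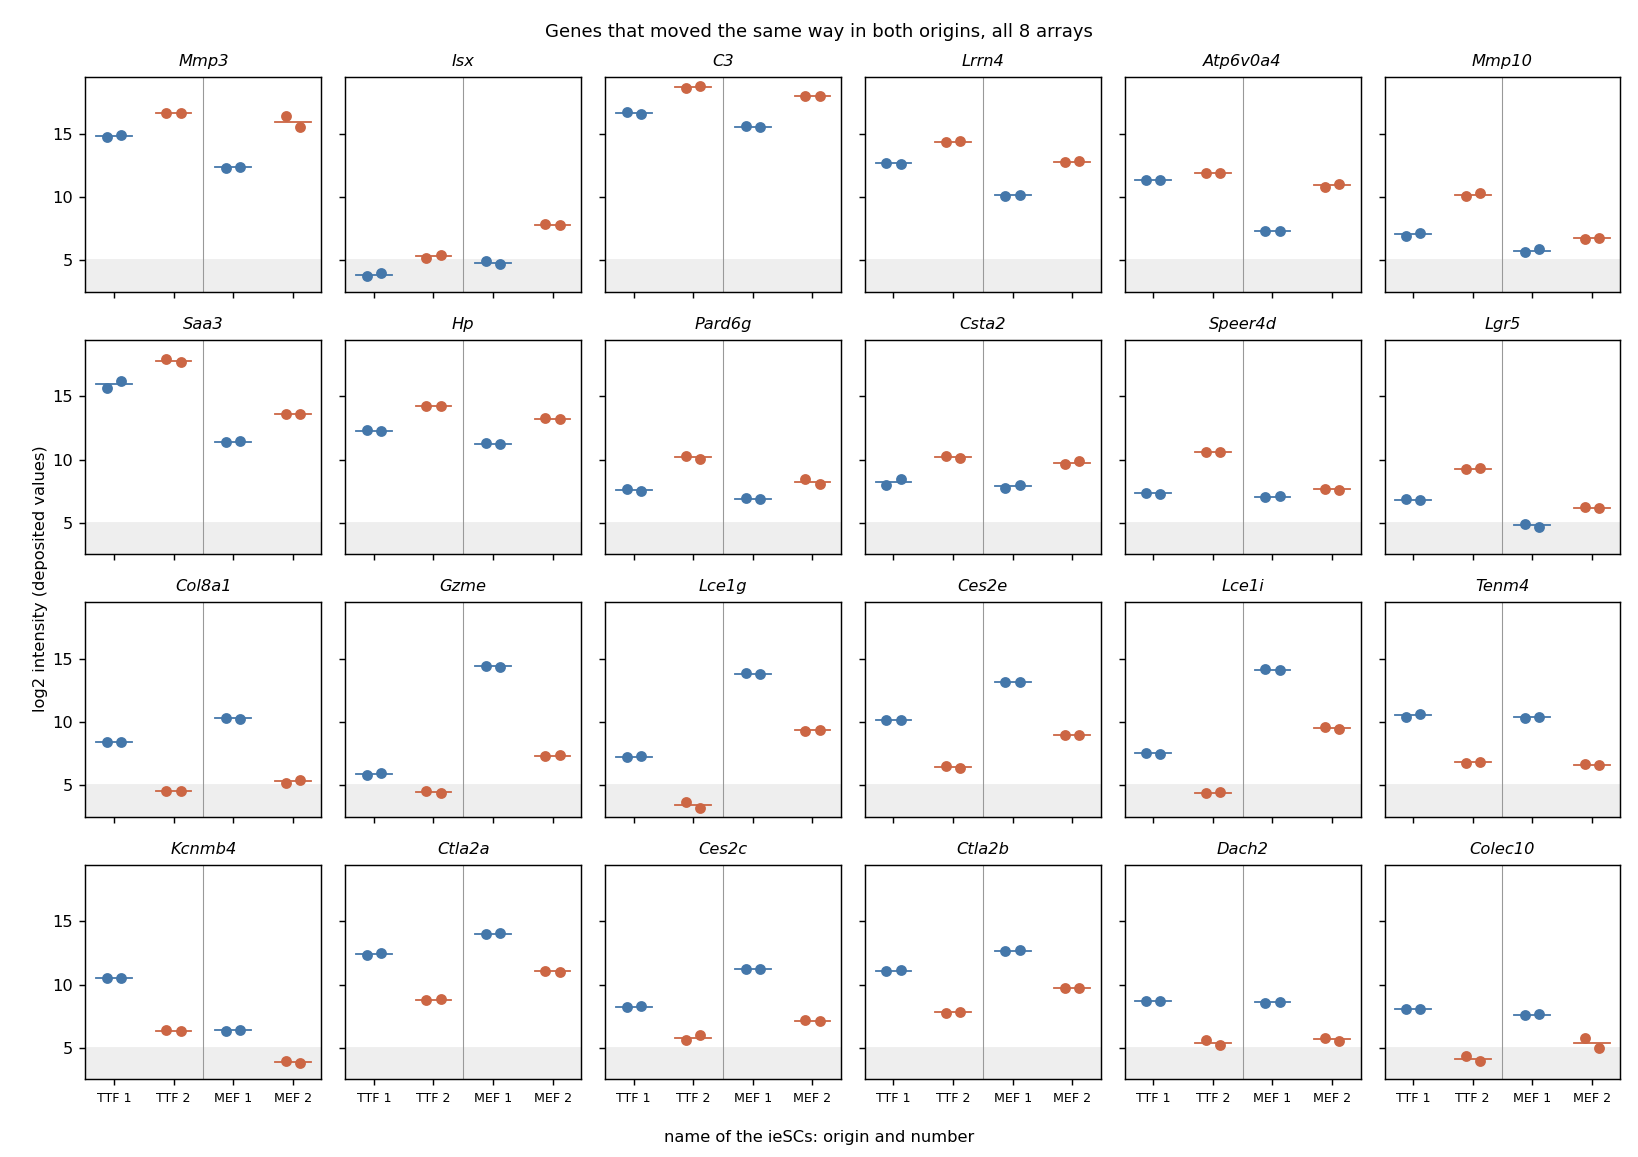
Log2 intensity on each of the 8 arrays (points) and the mean of each name (lines) for the 12 largest rises (upper rows) and the 12 largest falls (lower rows) shared by both origins among the genes called over both, with number 1 in blue and number 2 in orange. The grey band marks levels under 5, which 6 of the 12 falls reached in number 2 in at least 1 origin.

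The 12 largest falls shared by both origins, among genes called over both, were Col8a1, Gzme, Lce1g, Ces2e, Lce1i, Tenm4, Kcnmb4, Ctla2a, Ces2c, Ctla2b, Dach2 and Colec10. Col8a1, a short-chain collagen of vessel walls and of activated fibroblasts, stood at 8.44 and 8.42 in TTF-derived number 1, 4.58 and 4.52 in TTF-derived number 2, 10.33 and 10.26 in MEF-derived number 1 and 5.21 and 5.44 in MEF-derived number 2. Both numbers were far apart in each origin, and Col8a1 fell 14.7-fold in TTF-derived (-3.88 ± 0.09, adjusted p = 4.64e-06) and 31.3-fold in MEF-derived ieSCs (-4.97 ± 0.09, adjusted p = 2.55e-06), to dim levels in TTF-derived number 2. Tenm4, a teneurin, a membrane protein of cell adhesion and axon guidance, stood at 10.43 and 10.63 in TTF-derived number 1, 6.76 and 6.88 in TTF-derived number 2, 10.34 and 10.40 in MEF-derived number 1 and 6.68 and 6.58 in MEF-derived number 2. The fall was nearly the same in both, -3.71 ± 0.09 and -3.74 ± 0.09, although a second feature of the gene gave 0.22 and -0.03. Dach2, a transcriptional cofactor of limb and muscle development, changed by -3.33 ± 0.15 and -2.92 ± 0.15, and Kcnmb4, an auxiliary subunit of the BK potassium channel, by -4.15 ± 0.08 and -2.50 ± 0.08 (a second feature gave -2.17 and -0.12). Colec10, a collectin of innate immunity, changed by -3.92 ± 0.27 and -2.26 ± 0.27. Ces2e and Ces2c, carboxylesterases that cleave lipid and drug esters, changed by -3.73 ± 0.08 and -2.48 ± 0.13 in TTF-derived and by -4.20 ± 0.08 and -4.10 ± 0.13 in MEF-derived ieSCs, with all 5 tested Ces2 genes lower in MEF-derived and 2 of 5 in TTF-derived number 2. The Ces2 genes and the other name families below were counted after values had been seen. The share of all genes falling was 13.1% in TTF-derived and 11.3% in MEF-derived ieSCs.

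Ctla2a and Ctla2b, neighbouring genes for small inhibitors of cathepsin-like proteases, fell together. Ctla2a stood at 12.35 and 12.52 in TTF-derived number 1, 8.75 and 8.84 in TTF-derived number 2, 14.01 and 14.05 in MEF-derived number 1 and 11.09 and 10.99 in MEF-derived number 2, and Ctla2b at 11.05 and 11.13 in TTF-derived number 1, 7.78 and 7.85 in TTF-derived number 2, 12.66 and 12.71 in MEF-derived number 1 and 9.70 and 9.69 in MEF-derived number 2. Number 2 was lower in each origin for both genes, Ctla2a with -3.64 ± 0.08 and -2.99 ± 0.08 and Ctla2b with -3.27 ± 0.06 and -2.99 ± 0.06 (adjusted p from 4.73e-06 to 9.88e-06). Granzymes, serine proteases known from the granules of cytotoxic lymphocytes, fell most where they had been bright. Gzme stood at 5.83 and 5.98 in TTF-derived number 1, 4.58 and 4.42 in TTF-derived number 2, 14.45 and 14.37 in MEF-derived number 1 and 7.33 and 7.37 in MEF-derived number 2. In MEF-derived ieSCs the fall was -7.06 ± 0.09 (134-fold, adjusted p = 6.86e-07), while in TTF-derived ieSCs, where number 1 was already near the dim end, it was -1.41 ± 0.09. Gzmc changed by -4.56 ± 0.22 and Gzmd by -4.76 ± 0.23 in MEF-derived ieSCs, as did Mcpt8, a mast cell protease, with -4.53 ± 0.20. Of 8 tested granzymes counted by name, 1 rose and 2 fell in TTF-derived and 0 rose and 5 fell in MEF-derived ieSCs. The shares of all genes rising were 11.5% and 9.78%. Of the 17 genes on the list of the Serpinb9 cluster, granzymes and Ctla2, 0 rose and 11 fell in TTF-derived and 1 rose and 9 fell in MEF-derived ieSCs. Their medians were -0.80 and -0.95 against 0.00 over all genes, of which 13.1% fell in TTF-derived and 11.3% in MEF-derived ieSCs. Late cornified envelope genes, which code for proteins of the skin barrier, fell as well: of 15 tested Lce1 and Lce3 genes 7 fell in TTF-derived and 10 in MEF-derived number 2, and 0 rose. Lce1g stood at 7.21 and 7.28 in TTF-derived number 1, 3.65 and 3.22 in TTF-derived number 2, 13.86 and 13.83 in MEF-derived number 1 and 9.32 and 9.37 in MEF-derived number 2, and Lce1i changed by -3.10 ± 0.08 and -4.60 ± 0.08. Members of the granzyme, Lce1, Ctla2, Ces2 and Speer families are close in sequence, so a feature may read a neighbour's transcript, which was not tested.

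In the fit over both origins the calls of Atp6v0a4, Gzme, Mmp10 and Speer4d were lost when single arrays were left out. Without them the adjusted p was 0.0567 to 0.121 for Atp6v0a4 (each of the 8 arrays), 0.0515 to 0.0908 for Gzme (TTF-derived 1b and each MEF-derived array), 0.0534 for Mmp10 (TTF-derived 1b) and 0.0502 to 0.111 for Speer4d (each array but MEF-derived 2b). The values within an origin for which these genes are named kept their call in each of those fits.

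Fibroblast and mesenchymal markers fell in TTF-derived number 2 in 18 of 30 tested and rose in 2, against 13.1% of all genes falling and 11.5% rising. In MEF-derived ieSCs 11 fell and 6 rose, against 11.3% and 9.78% of all genes, and the risers were Mmp3, Lum, Dcn, Snai1, P4ha1 and Fbln2. The list's medians were -0.78 and -0.16. The mean log2 level of the 30 was 12.30 to 12.32 in TTF-derived number 1 and 11.26 to 11.30 in number 2, and 11.75 to 11.78 against 11.62 in MEF-derived ieSCs. Pdgfrb, a growth factor receptor of mesenchymal cells, changed by -2.43 ± 0.21 and -2.61 ± 0.21, and Postn, the matrix protein periostin, by -2.45 ± 0.15 and -3.41 ± 0.15. Ddr2, a collagen receptor, changed by -0.40 ± 0.06 and -0.43 ± 0.06. Prrx1, a homeobox factor of limb mesenchyme, stood at 12.43 and 12.45 in TTF-derived number 1, 8.22 and 8.17 in TTF-derived number 2, 6.59 and 6.64 in MEF-derived number 1 and 5.89 and 5.59 in MEF-derived number 2. The TTF-derived fall was -4.25 ± 0.10 and the MEF-derived one -0.88 ± 0.10, where a second feature gave 1.49. S100a4, a calcium-binding protein of fibroblasts, changed by -1.93 ± 0.07 and -0.31 ± 0.07, and Fbn1, fibrillin 1, by -2.54 ± 0.08 in TTF-derived ieSCs, with 0.05 ± 0.08 in MEF-derived ieSCs (adjusted p of the difference between origins 6.48e-05).

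Mesothelial and coelomic markers moved the other way. Of 17 tested, 9 rose and 2 fell in TTF-derived ieSCs and 9 rose and 0 fell in MEF-derived ieSCs, 8 of them rising in both, against 11.5% and 9.78% of all genes rising. Wt1, a transgene factor whose features do not tell the transgene's transcript from the cell's own, was among those 8. Lrrn4, a leucine-rich membrane protein of mesothelium, stood at 12.71 and 12.65 in TTF-derived number 1, 14.36 and 14.42 in TTF-derived number 2, 10.10 and 10.18 in MEF-derived number 1 and 12.75 and 12.84 in MEF-derived number 2. Number 2 was higher by 1.72 ± 0.07 and 2.65 ± 0.07 (adjusted p = 2.19e-05 and 9.88e-06). Krt8 and Krt18, the paired keratins of simple epithelia, rose by 1.35 ± 0.09 and 1.02 ± 0.09 in TTF-derived and by 2.27 ± 0.09 and 1.13 ± 0.09 in MEF-derived ieSCs. Gpm6a, a membrane glycoprotein, rose by 0.34 ± 0.09 and 1.30 ± 0.09. Msln, mesothelin, was near the top of the scale on all arrays and was not called (differences of 0.23 and 0.33), and was named after its values had been seen. The mean log2 level of the 17 markers was 13.37 in TTF-derived number 1, 13.76 to 13.79 in number 2, 12.42 to 12.46 in MEF-derived number 1 and 13.17 in number 2.

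Of 22 tested epithelial and junction genes, 8 rose and 2 fell in TTF-derived and 5 rose and 2 fell in MEF-derived ieSCs, against 11.5% and 9.78% of all genes rising. The same 2 genes fell in both origins. A further 6 members of the list, Cdh1, Epcam, Cldn1, Dsc2, Grhl2 and Ovol1, had a feature that did not pass the filter. Cldn3, a claudin of tight junctions, rose by 0.95 ± 0.06 and 1.06 ± 0.06, Tjp1, the scaffold ZO-1, by 1.07 ± 0.09 and 0.58 ± 0.09, F11r, the junctional adhesion molecule JAM-A, by 0.81 ± 0.10 and 0.69 ± 0.10, and Dsg2, a desmosomal cadherin, by 0.84 ± 0.08 and 0.90 ± 0.08. Tjp3 and Cgn, further tight junction proteins, rose in TTF-derived ieSCs by 1.92 ± 0.08 and 1.29 ± 0.09.

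Of 13 tested smooth muscle genes, 0 rose and 9 fell in MEF-derived number 2 (median -0.67, against 11.3% of all genes falling). The TTF-derived comparison held calls both ways, with 3 higher and 4 lower among the 13 and a median of -0.09. Its background over all genes was 11.5% higher and 13.1% lower. Tagln, transgelin, stood at 13.19 and 13.13 in TTF-derived number 1, 13.54 and 13.46 in TTF-derived number 2, 16.61 and 16.64 in MEF-derived number 1 and 15.02 and 14.87 in MEF-derived number 2. It changed by -1.68 ± 0.08 in MEF-derived and rose by 0.35 ± 0.08 in TTF-derived ieSCs, and the interaction was called (adjusted p = 0.000137). Cnn1, calponin 1, behaved alike, with -1.37 ± 0.10 and 0.67 ± 0.10. Des, the muscle intermediate filament desmin, fell in both, with -1.41 ± 0.16 and -2.02 ± 0.16, as did Actg2, a smooth muscle actin, with -0.65 ± 0.11 and -1.07 ± 0.11. Acta2, smooth muscle actin, differed by -0.19 ± 0.12 in TTF-derived ieSCs (adjusted p = 0.316) and fell by 0.96 ± 0.12 in MEF-derived ieSCs. In bulk samples such as these, fewer cells of a type and less RNA per cell cannot be told apart, and the part of the fibroblast and smooth muscle markers in the other differences was not tested.

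**Figure D3:**
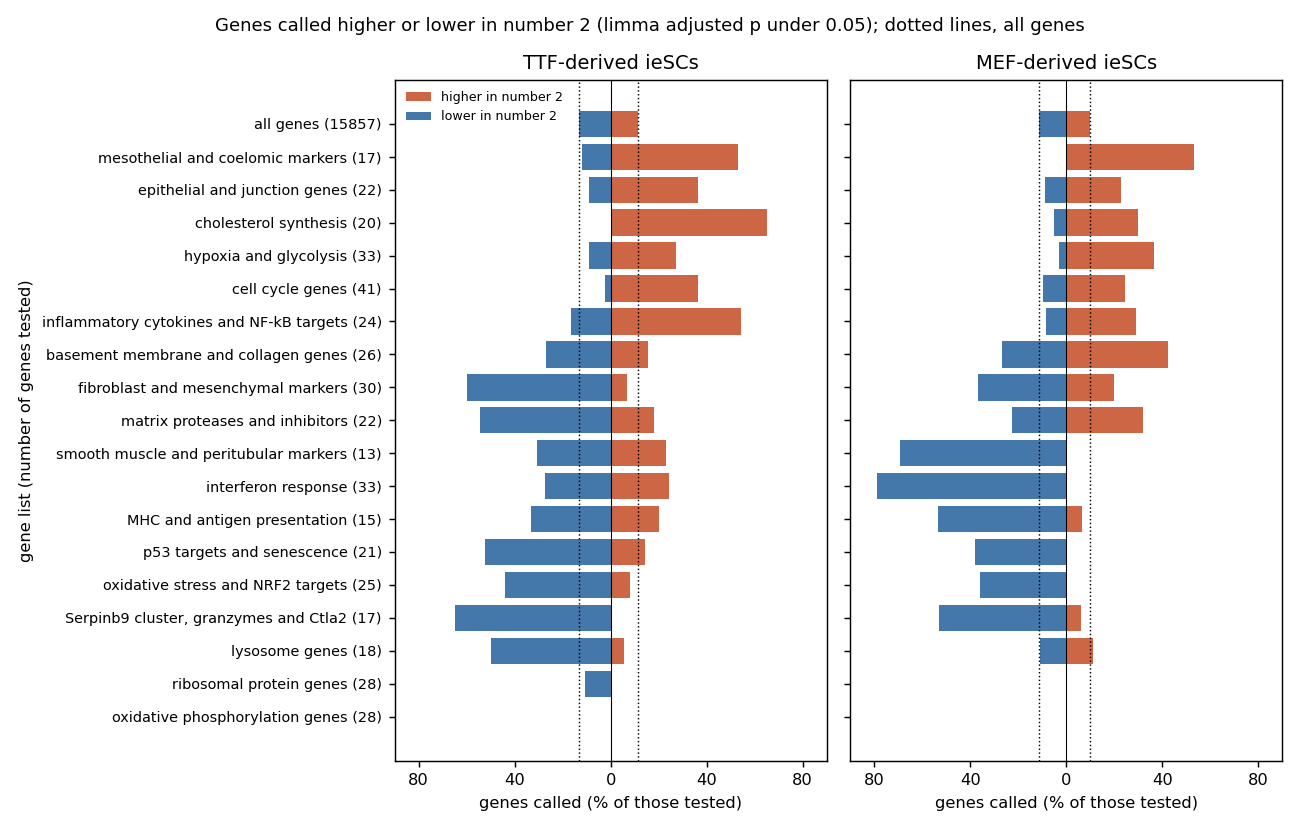
Share of the tested genes of each list called higher (orange, to the right) or lower (blue, to the left) in number 2 than in number 1, in percent, for TTF-derived (left panel) and MEF-derived ieSCs (right panel), with the number of genes tested in parentheses. Dotted lines mark the shares over all genes, 11.5% and 13.1% in TTF-derived and 9.78% and 11.3% in MEF-derived ieSCs; interferon response genes reach furthest to the left in MEF-derived ieSCs.

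The interferon response divided the origins. Interferons act through Stat and Irf factors, which bind short elements before the genes they switch on, and the products block viral replication, sense foreign nucleic acid and prepare peptides for display. Of 33 tested genes of this response, 0 rose and 26 fell in MEF-derived number 2 (median -0.70), against 11.3% of all genes falling. TTF-derived ieSCs had 8 rises and 9 falls (median 0.08), against 11.5% of all genes rising and 13.1% falling. The interaction was called for 21 of the 33, against 15.4% of all genes. The mean log2 level of the 33 genes was 9.93 to 9.97 in MEF-derived number 1 and 9.02 to 9.07 in MEF-derived number 2, with 9.64 to 9.65 and 9.59 to 9.60 in TTF-derived numbers 1 and 2. Of the MEF-derived falls, 9 were also falls in TTF-derived ieSCs, 6 were rises there and 11 were not called.

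To show where interferon-controlled elements lie in these genes, the 250 bases before the start of each gene were searched in RefSeq promoters (GRCm38.p6) on both strands for the core of the interferon-stimulated response element. Of the 25 tested members of the interferon list with a RefSeq promoter, 11 had this core, as did 3.46% of all 27025 genes with one. Among the 19 of these members that were lower in MEF-derived number 2, it was present in 9. The 4 of these 9 with the largest fall are printed 5′ to 3′ along the gene's strand, with the element on either strand in capitals. They are Oas1a (chr5:120907526-120907615, minus strand), Ifit1 (chr19:34640745-34640834, plus strand), Trim30a (chr7:104465194-104465283, minus strand) and Ifit3 (chr19:34583333-34583422, plus strand).
Oas1a: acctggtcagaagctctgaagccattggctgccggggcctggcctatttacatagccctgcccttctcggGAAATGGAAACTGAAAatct
Ifit1: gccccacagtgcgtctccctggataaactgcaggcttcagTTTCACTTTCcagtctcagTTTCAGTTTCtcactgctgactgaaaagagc
Trim30a: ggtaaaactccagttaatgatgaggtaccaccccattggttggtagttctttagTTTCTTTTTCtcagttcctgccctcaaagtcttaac
Ifit3: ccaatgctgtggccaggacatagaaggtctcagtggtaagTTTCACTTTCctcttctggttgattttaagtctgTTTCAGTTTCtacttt
The element began 20 bases before the start in Oas1a, 104 in Ifit1, 36 in Trim30a and 156 in Ifit3, and it occurred more than once in the stretches of Oas1a (overlapping), Ifit1 and Ifit3. A match is a description of the sequence, not a measured site.

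Oas1a, an enzyme that makes the messenger that activates RNase L, stood at 6.83 and 6.87 in TTF-derived number 1, 7.15 and 6.98 in TTF-derived number 2, 8.40 and 8.32 in MEF-derived number 1 and 5.38 and 5.36 in MEF-derived number 2. MEF-derived number 2 lay far below every other array, a fall of -2.99 ± 0.08 (adjusted p = 9.88e-06), while TTF-derived ieSCs differed by 0.21 ± 0.08 (adjusted p = 0.0989). Ifi44, an interferon-induced GTP-binding protein, stood at 6.73 and 6.56 in TTF-derived number 1, 5.50 and 5.73 in TTF-derived number 2, 9.86 and 9.87 in MEF-derived number 1 and 6.21 and 6.08 in MEF-derived number 2 and fell in both origins, with -1.03 ± 0.10 and -3.72 ± 0.10. Ifit3, an RNA-binding protein of the antiviral state, had its larger fall in TTF-derived ieSCs, -2.43 ± 0.08 against -1.26 ± 0.08 (adjusted p of the difference 0.00104). Mx1, the antiviral dynamin-like GTPase, changed by -1.83 ± 0.17 and -1.71 ± 0.17, to dim levels. Ifit2 changed by -0.60 ± 0.10 and -0.76 ± 0.10, and Xaf1, a promoter of cell death, by -0.56 ± 0.07 and -0.70 ± 0.07. Ifit1 and Trim30a, printed above for their sequence and named after their values had been seen, fell in MEF-derived ieSCs, with -1.54 ± 0.13 and -1.47 ± 0.10.

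The 6 genes that went opposite ways were led by Oasl1 and Cxcl10. Oasl1, which restrains translation of Irf7, stood at 8.23 and 8.24 in TTF-derived number 1, 10.44 and 10.34 in TTF-derived number 2, 6.84 and 6.92 in MEF-derived number 1 and 6.20 and 6.28 in MEF-derived number 2. It rose by 2.15 ± 0.07 in TTF-derived and fell by 0.64 ± 0.07 in MEF-derived ieSCs (adjusted p of the difference 3.44e-05). Cxcl10, a chemokine for T cells, rose by 1.70 ± 0.08 and fell by 0.70 ± 0.08. Oasl2 rose by 0.49 ± 0.07 and fell by 1.47 ± 0.07. The guanylate-binding Gbp family, counted after values had been seen, showed the same division, with 7 of 11 genes higher and 0 lower in TTF-derived number 2 and 1 higher and 5 lower in MEF-derived number 2. The Ifit family fell in both, 5 of 6 in each origin. Shares over all genes were 11.5% rising and 13.1% falling in TTF-derived and 9.78% and 11.3% in MEF-derived ieSCs.

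**Figure D4:**
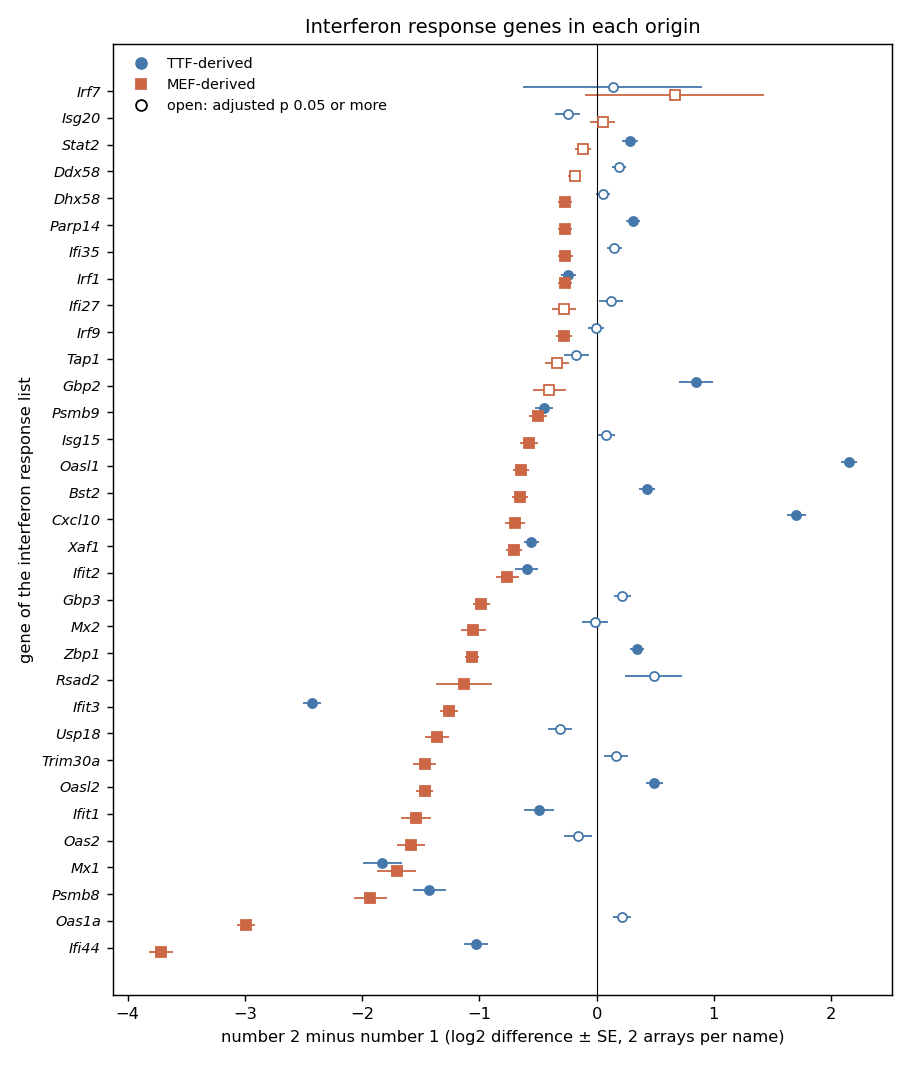
Log2 difference between number 2 and number 1 with its SE for the 33 tested genes of the interferon response list, in TTF-derived (blue circles) and MEF-derived ieSCs (orange squares), ordered by the MEF-derived difference. Filled symbols passed the threshold: 26 of the squares are filled and left of 0, while 8 of the filled circles lie right and 9 left of it.

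Of 15 tested genes of antigen presentation, which interferons also raise, 3 rose and 5 fell in TTF-derived and 1 rose and 8 fell in MEF-derived ieSCs, against 13.1% and 11.3% of all genes falling. B2m, the invariant chain of class I molecules, stood at 16.29 and 16.28 in TTF-derived number 1, 15.66 and 15.71 in TTF-derived number 2, 15.57 and 15.64 in MEF-derived number 1 and 14.81 and 14.66 in MEF-derived number 2. Number 2 was lower in each origin, with -0.60 ± 0.07 and -0.87 ± 0.07 (adjusted p = 0.00184 and 0.000465). Psmb8 and Psmb9, subunits of the immunoproteasome that cuts peptides for display, changed by -1.43 ± 0.14 and -0.45 ± 0.08 in TTF-derived and by -1.93 ± 0.14 and -0.50 ± 0.08 in MEF-derived ieSCs. Tapbp, the chaperone tapasin, rose by 0.43 ± 0.06 and 0.36 ± 0.06. Of 12 tested macrophage markers, 2 rose and 4 fell in TTF-derived and 1 rose and 2 fell in MEF-derived ieSCs, against 11.5% and 13.1% and against 9.78% and 11.3% of all genes rising and falling. Their mean log2 level was 7.35 to 7.50 on TTF-derived and 7.74 to 7.91 on MEF-derived arrays, and 8 further markers, C1qa, Tyrobp and Cx3cr1 among them, did not pass the filter. Their part in the values of the antigen presentation genes was not tested.

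Of 24 tested inflammatory cytokines and NF-kB targets, 13 rose and 4 fell in TTF-derived ieSCs (median 0.45), against 11.5% of all genes rising. In MEF-derived ieSCs 7 rose and 2 fell (median 0.08), against 9.78% of all genes rising. The interaction was called for 15 of the 24, against 15.4% of all genes. The chemokines Cxcl1 and Cxcl5, which attract neutrophils, went against the list in TTF-derived ieSCs, with falls of -1.47 ± 0.07 and -2.53 ± 0.12 and rises of 0.66 ± 0.07 and 0.69 ± 0.12 in MEF-derived ieSCs. Il33, an alarmin of barrier cells, rose by 1.30 ± 0.08 in MEF-derived ieSCs, and Csf1, the macrophage growth factor, changed by -0.54 ± 0.09 and -0.51 ± 0.09.

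More sterol synthesis genes rose than fell in number 2, with more calls in TTF-derived than in MEF-derived ieSCs. The enzymes of this pathway are switched on together by the factor Srebf2 when membrane sterol is low. Of 20 tested genes, 13 rose and 0 fell in TTF-derived (median 0.45) and 6 rose and 1 fell in MEF-derived ieSCs (median 0.19), against 11.5% and 9.78% of all genes rising. The interaction was called for 4 of the 20, against 15.4% of all genes. Hmgcs1, the synthase at the start of the pathway, stood at 13.58 and 13.90 in TTF-derived number 1, 14.79 and 14.89 in TTF-derived number 2, 14.35 and 14.52 in MEF-derived number 1 and 15.16 and 15.27 in MEF-derived number 2. Number 2 was higher in each origin, by 1.10 ± 0.12 and 0.78 ± 0.12 (adjusted p = 0.00135 and 0.0062). Srebf2 itself rose by 0.57 ± 0.08 and 0.67 ± 0.08. Stard4, a sterol carrier, rose by 1.16 ± 0.06 and 0.38 ± 0.06, Idi1, an isomerase of the pathway, by 0.97 ± 0.13 and 0.56 ± 0.13, and Cyp51, the lanosterol demethylase, by 0.46 ± 0.08 and 0.66 ± 0.08. Fdps, which makes farnesyl diphosphate, rose by 0.76 ± 0.08 in TTF-derived ieSCs, with 0.09 ± 0.08 in MEF-derived ieSCs. The sterol response core TCACNCCAC, searched on both strands in the same windows, was present in 1 of the 16 members with a promoter, Hmgcs1, and in 1.22% of all genes with one. Its stretch lies at chr13:119690174-119690263, plus strand, with the match in capitals.
Hmgcs1: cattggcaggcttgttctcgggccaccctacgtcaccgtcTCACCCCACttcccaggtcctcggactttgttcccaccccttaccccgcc
Of 15 tested fatty acid synthesis genes and SREBP1 targets 7 rose and 0 fell in TTF-derived ieSCs. The count of 7 became 2 to 4 without TTF-derived array 1a, 1b or 2a or MEF-derived array 1a or 1b. In MEF-derived ieSCs 2 rose and 1 fell. Scd1, the desaturase that makes oleate, rose by 0.63 ± 0.11 and 0.97 ± 0.11, and its TTF-derived call was lost without array 1b (adjusted p = 0.0528).

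Of 41 tested cell cycle genes, 15 rose and 1 fell in TTF-derived and 10 rose and 4 fell in MEF-derived ieSCs, with medians of 0.32 and 0.14, against 11.5% and 9.78% of all genes rising. These counts depended on single arrays: 8, 7 and 8 rose in TTF-derived ieSCs without arrays 1a, 1b and 2b, and 4, 5 and 5 in MEF-derived ieSCs without arrays 1b, 2a and 2b, where 1 or 2 fell without arrays 1a, 1b or 2a. Mki67, the marker of cycling cells, stood at 13.52 and 13.59 in TTF-derived number 1, 14.09 and 14.29 in TTF-derived number 2, 6.19 and 6.04 in MEF-derived number 1 and 6.86 and 6.87 in MEF-derived number 2. It rose by 0.63 ± 0.09 and 0.75 ± 0.09 (adjusted p = 0.00392 and 0.00237). Mcm5 and Mcm6, subunits of the replicative helicase, rose by 0.44 ± 0.09 and 0.56 ± 0.07 in TTF-derived and by 0.52 ± 0.09 and 0.37 ± 0.07 in MEF-derived ieSCs. Ccnd1, the G1 cyclin, fell in both, with -1.06 ± 0.14 and -0.56 ± 0.14, and Rrm2, a ribonucleotide reductase subunit, changed by -1.23 ± 0.10 in MEF-derived ieSCs, with -0.16 ± 0.10 in TTF-derived ieSCs.

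Of 21 tested p53 targets and senescence genes, 3 rose and 11 fell in TTF-derived ieSCs, 6 falling without array 1a, against 11.5% of all genes rising and 13.1% falling. In MEF-derived ieSCs 0 rose and 8 fell, against 9.78% and 11.3%, with medians of -0.35 and -0.28. Gdf15, a secreted stress factor, had means of 12.22 and 11.19 in TTF-derived numbers 1 and 2 and of 10.99 and 9.39 in MEF-derived numbers 1 and 2. Number 2 was lower in each origin, with -1.03 ± 0.07 and -1.60 ± 0.07 (adjusted p = 0.000198 and 4.72e-05). Mdm2, the ligase that limits p53, changed by -0.40 ± 0.10 and -0.72 ± 0.10, Bbc3, the death effector Puma, by -0.90 ± 0.11 and -0.42 ± 0.11, and Perp, a membrane protein of desmosomes, by -0.32 ± 0.06 and -0.72 ± 0.06. Cdkn1a, the cell cycle inhibitor p21, changed by -1.35 ± 0.13 in TTF-derived ieSCs, with -0.28 ± 0.13 (adjusted p = 0.184) in MEF-derived ieSCs.

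Of 25 oxidative stress genes and NRF2 targets, 2 rose and 11 fell in TTF-derived ieSCs (6 or 7 falling without any 1 of the 4 TTF-derived arrays). In MEF-derived ieSCs 0 rose and 9 fell, and of all genes 13.1% fell in TTF-derived and 11.3% in MEF-derived ieSCs. Cat, catalase, changed by -0.90 ± 0.08 and -0.58 ± 0.08, Gsta4 and Gsta2, glutathione transferases, by -0.68 ± 0.10 and -0.99 ± 0.13 in TTF-derived and -0.98 ± 0.10 and -1.46 ± 0.13 in MEF-derived ieSCs, and Hmox1, heme oxygenase 1, by -0.39 ± 0.07 and -0.39 ± 0.07. Among 33 genes of hypoxia and glycolysis, TTF-derived ieSCs had 9 rises (5 without array 1b) and 3 falls, and MEF-derived ieSCs had 12 rises and 1 fall. The share of all genes rising was 11.5% in TTF-derived and 9.78% in MEF-derived ieSCs. Slc2a1, the glucose carrier Glut1, rose by 0.67 ± 0.10 and 0.62 ± 0.10, Ndrg1 by 0.81 ± 0.07 and 0.58 ± 0.07, and Ankrd37 by 0.58 ± 0.09 and 0.88 ± 0.09. Car9 and Adm, which low oxygen also raises, went opposite ways, with -1.05 ± 0.07 and -1.04 ± 0.09 in TTF-derived and 0.84 ± 0.07 and 0.78 ± 0.09 in MEF-derived ieSCs. Lysosome genes fell in 9 and rose in 1 of 18 in TTF-derived ieSCs (5 falling without array 1a), and fell in 2 and rose in 2 in MEF-derived ieSCs; Tpp1, a lysosomal peptidase, fell in both, with -0.48 ± 0.09 and -0.64 ± 0.09.

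Growth factor and signalling genes moved in both directions. Inhba, the activin A subunit, stood at 12.15 and 12.16 in TTF-derived number 1, 11.07 and 11.07 in TTF-derived number 2, 15.56 and 15.45 in MEF-derived number 1 and 13.58 and 13.67 in MEF-derived number 2. It changed by -1.08 ± 0.07 and -1.88 ± 0.07 (adjusted p = 0.000137 and 2.29e-05). Bmp7 rose by 1.23 ± 0.13 and 0.97 ± 0.13, Tgfbr2, the type II TGF-beta receptor, by 0.58 ± 0.08 and 0.62 ± 0.08, and Id3, a target of BMP signals, changed by -0.53 ± 0.06 and -1.08 ± 0.06. Of 25 genes of TGF-beta, BMP and activin signalling 5 rose and 8 fell in TTF-derived ieSCs. In MEF-derived ieSCs 8 rose and 10 fell (6 falling without MEF-derived array 1a). The shares over all genes were 11.5% rising and 13.1% falling in TTF-derived and 9.78% and 11.3% in MEF-derived ieSCs. Igfbp2, which binds insulin-like growth factors, stood at 13.22 and 13.07 in TTF-derived number 1, 9.80 and 9.97 in TTF-derived number 2, 13.57 and 13.60 in MEF-derived number 1 and 11.57 and 11.69 in MEF-derived number 2 and changed by -3.26 ± 0.09 and -1.96 ± 0.09. Igf1 changed by -0.84 ± 0.10 and -1.43 ± 0.10. Among Wnt genes, Sfrp1, a secreted antagonist, rose by 1.00 ± 0.10 and 1.30 ± 0.10 and the ligand Wnt11 changed by -0.87 ± 0.09 and -1.37 ± 0.09, and 7 rose and 7 fell of 25 in TTF-derived ieSCs (3 falling without array 1a), and 6 rose and 3 fell in MEF-derived ieSCs. Nr4a2, an orphan nuclear receptor induced within the hour of a stimulus, rose by 1.96 ± 0.06 and 1.18 ± 0.06, and Klf2 by 0.83 ± 0.14 and 1.10 ± 0.14, while Fosl1 changed by -0.85 ± 0.12 and -1.03 ± 0.12.

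Some of the largest differences lay in 1 origin. In TTF-derived ieSCs Abi3bp, a matrix protein of mesenchymal cells, stood at 11.37 and 11.42 on the number 1 arrays and 4.18 and 4.67 on the number 2 arrays of TTF-derived ieSCs and at 8.37 and 8.49 on the number 1 arrays and 7.87 and 7.80 on the number 2 arrays of MEF-derived ieSCs. The TTF-derived fall was -6.96 ± 0.15, to dim levels, and the MEF-derived one -0.59 ± 0.15 (adjusted p of the difference 3.21e-05). Spon2, a secreted matrix protein that takes part in innate immunity, stood at 13.48 and 13.52 on the number 1 arrays and 8.25 and 8.52 on the number 2 arrays of TTF-derived ieSCs and at 8.48 and 8.33 on the number 1 arrays and 8.61 and 8.44 on the number 2 arrays of MEF-derived ieSCs. It changed by -5.12 ± 0.11 in TTF-derived ieSCs, against 0.12 ± 0.11 in MEF-derived ieSCs (adjusted p = 0.511; of the difference 2.29e-05). Tnn, tenascin N, Col6a5, a collagen VI chain, and Scn3a, a neuronal sodium channel, fell in TTF-derived ieSCs, with -4.26 ± 0.08, -4.41 ± 0.18 and -4.63 ± 0.19, and none of the 3 was called in MEF-derived ieSCs, where Col6a5 and Scn3a were dim. Mycl, a Myc family factor, had the largest TTF-derived rise of the genes named by size, 4.28 ± 0.56, but arrays a and b of number 2 were 9.07 and 7.24, and number 1 was dim. Sntg1, a syntrophin scaffold, stood at 6.46 and 6.49 on the number 1 arrays and 9.97 and 10.24 on the number 2 arrays of TTF-derived ieSCs and at 9.68 and 9.58 on the number 1 arrays and 10.05 and 10.06 on the number 2 arrays of MEF-derived ieSCs, with a rise of 3.63 ± 0.10 in TTF-derived against 0.42 ± 0.10 in MEF-derived ieSCs. Speer4a, Speer4b and Speer5-ps1 rose by 3.23 ± 0.11, 3.20 ± 0.12 and 3.05 ± 0.06, and a second Speer4b feature gave -0.27. Rgs16, a brake on G protein signals, rose by 2.46 ± 0.12.

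In MEF-derived ieSCs Itih4, an acute phase inhibitor family protein, stood at 8.33 and 8.41 on the number 1 arrays and 11.81 and 11.73 on the number 2 arrays of MEF-derived ieSCs and at 12.05 and 12.08 on the number 1 arrays and 12.03 and 12.05 on the number 2 arrays of TTF-derived ieSCs. It rose by 3.40 ± 0.06 there, to just under the level of the TTF-derived arrays, which differed by -0.02 ± 0.06. Nid2, nidogen 2 of basement membranes, stood at 10.08 and 10.18 on the number 1 arrays and 13.18 and 13.06 on the number 2 arrays of MEF-derived ieSCs and at 13.96 and 13.96 on the number 1 arrays and 14.17 and 14.32 on the number 2 arrays of TTF-derived ieSCs, a rise of 2.99 ± 0.08 against 0.28 ± 0.08 (adjusted p of the difference 7.07e-05). Stfa3, a stefin, and Fam83a, a signalling scaffold, rose by 3.43 ± 0.11 and 3.41 ± 0.14. Of 26 basement membrane and collagen genes 11 rose and 7 fell in MEF-derived ieSCs, against 9.78% and 11.3% of all genes. Col6a2 rose by 1.77 ± 0.08 and Col4a3 by 1.43 ± 0.08. In TTF-derived ieSCs 4 of the 26 rose and 7 fell, against 11.5% and 13.1% of all genes. There 3 fell without array 1a, and 1 to 2 rose without TTF-derived array 1a or 2b or MEF-derived array 1a or 1b. Mab21l4, Lce1h and Lce1c fell in MEF-derived ieSCs, with -4.50 ± 0.15, -4.60 ± 0.07 and -4.43 ± 0.20.

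Genes called in opposite directions in the 2 origins formed a set of 388. The interaction was called in all 388, which is no separate result, because opposite calls in the same fit all but ensure it. The orosomucoids Orm1, Orm2 and Orm3, acute phase plasma proteins, were among the 8 with the largest interaction. Orm1 stood at 8.90 and 8.92 in TTF-derived number 1, 6.43 and 6.61 in TTF-derived number 2, 9.76 and 9.59 in MEF-derived number 1 and 12.20 and 12.20 in MEF-derived number 2. It fell 5.23-fold in TTF-derived (-2.39 ± 0.09) and rose 5.74-fold in MEF-derived ieSCs (2.52 ± 0.09), so that the order of the numbers was reversed with no overlap of arrays. Orm2 gave -2.98 ± 0.08 and 2.22 ± 0.08, and Orm3 gave -3.24 ± 0.33 and 1.52 ± 0.33; the 3 genes are close in sequence and may share signal. Lum, the matrix proteoglycan lumican, stood at 11.07 and 11.16 in TTF-derived number 1, 9.39 and 9.28 in TTF-derived number 2, 8.73 and 8.76 in MEF-derived number 1 and 11.71 and 11.66 in MEF-derived number 2. It changed by -1.78 ± 0.07 and rose by 2.94 ± 0.07. Il13ra2, a decoy receptor for interleukin 13, gave -2.87 ± 0.08 and 1.91 ± 0.08, and Ptx3, a pentraxin of innate immunity, gave -3.52 ± 0.08 and 0.78 ± 0.08. Aqp1, a water channel, stood at 12.72 and 12.70 in TTF-derived number 1, 8.56 and 8.61 in TTF-derived number 2, 8.35 and 8.41 in MEF-derived number 1 and 8.64 and 8.61 in MEF-derived number 2, a fall of -4.13 ± 0.06 in TTF-derived and a small rise of 0.25 ± 0.06 in MEF-derived ieSCs. Col23a1, a membrane collagen, gave -2.66 ± 0.09 and 1.59 ± 0.09, and its 3 features kept these directions. Krt14, a keratin of basal epithelium, changed by -2.69 ± 0.07 in TTF-derived and rose by 1.35 ± 0.07 in MEF-derived ieSCs.

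**Figure D5:**
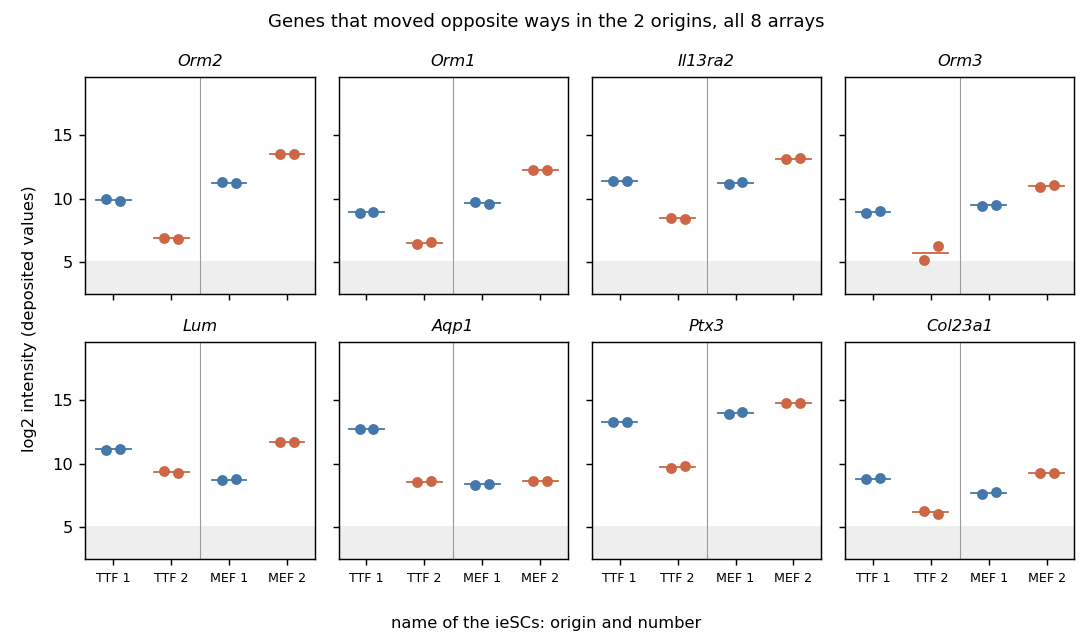
Log2 intensity on each of the 8 arrays (points) and the mean of each name (lines) for the 8 genes with the largest interaction among those called in opposite directions, with number 1 in blue and number 2 in orange. In each panel number 2 lies below number 1 in TTF-derived and above it in MEF-derived ieSCs.

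Some calls within an origin given above, mostly of small size, were lost when single arrays were left out. Among the TTF-derived calls this held for Cyp51 and Perp without array 1b, Mmp2 and Tpp1 without 1a, Hmox1 without 1a or 2a, Mcm5 without 1b or 2b and Tagln without 1a, 1b or 2a. It also held for Gpm6a without 1b, 2a or 2b and Mdm2 without any 1 of the 4 TTF-derived arrays, and for both without MEF-derived 1a or 1b; the adjusted p then lay between 0.0514 and 0.166. Among the MEF-derived calls, Abi3bp, Aqp1, Ccnd1, Idi1, Sntg1, Bbc3, Inhbb, Orm3, S100a4 and Sox9 were lost without any 1 of the 4 MEF-derived arrays, and the first 5 of these also without TTF-derived 1a or 1b. Csf1 was lost without 1a, 1b or 2b, Hmox1 without 1a, 1b or 2a, Mcm6 without 1b or 2b, Tapbp without 1a or 2b, Cxcl5 without 2b and Mcm5 without 1a, with an adjusted p between 0.0513 and 0.185 over all of these.

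Few oxidative phosphorylation, ribosomal protein and heat shock genes were called, against 24.6% of all genes in TTF-derived and 21% in MEF-derived ieSCs. Of 28 oxidative phosphorylation genes 0 were called in either origin by limma, with 3 in TTF-derived and 2 in MEF-derived ieSCs at an unadjusted p under 0.05. Of 28 ribosomal protein genes 0 rose and 3 fell in TTF-derived and 0 were called in MEF-derived ieSCs (1 at an unadjusted p under 0.05), and of 14 heat shock genes 2 rose in TTF-derived and 1 fell in MEF-derived ieSCs. Of 32 unfolded protein response genes and ATF4 targets 3 rose and 2 fell in TTF-derived ieSCs. In MEF-derived ieSCs 6 rose and 3 fell, and 1, 3 and 2 rose without arrays 1a, 1b and 2b, against 9.78% of all genes rising. With 2 arrays a name the median SE of a difference within an origin was 0.09, so that small shifts in these lists may have gone unseen.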

How the data were processed

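The values were log2 intensities from the deposited series matrix, made by the authors from Cy3-labelled total RNA on Agilent arrays. The submitters' processing notes name limma, and the background correction and normalization are not given in the sources used here. The table was used as deposited, with no further scaling. Of 62976 features, 31465 carry 1 gene symbol and 31511 none in the platform annotation. Symbols were updated through RefSeq accessions where these matched (29050 features, 3282 of them given a newer symbol). Features brighter than the 40th percentile on 2 or more of the 8 arrays were kept, which left 23803 named features. The brightest kept feature by its mean stood for each gene, which gave 15857 genes, of which 4564 had more than 1 kept feature. Features lie at positions in a transcript that are not given here, so features of 1 gene can differ.

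limma 3.58.1 in R 4.3.3 was fitted to all named features at once. The comparison over both origins used origin and number as terms (5 residual degrees of freedom), and those within an origin and between origins used a mean for each name (4 residual degrees of freedom). p-values were adjusted by Benjamini-Hochberg over all 23803 features, and the threshold was 0.05. The fits were tested on simulated data. No depth applies to arrays, and the number of arrays limits the precision. The labels carry a YB number for each array, with 1 array of a lower and 1 of a higher range in each name. Number 1 arrays were YB 1 and 2 in the lower and 9 and 10 in the higher range. Number 2 arrays were YB 5 and 6 in the lower and 13 and 14 in the higher range. The number in the name therefore cannot be told apart from the order of the YB numbers within a range, whose meaning the labels do not give. Deviations of arrays of the same range correlated at 0.0835 to 0.121 between names, so they were not taken as pairs.

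Genes were named by rule: the 12 largest rises and falls of the genes called over both origins whose arrays did not overlap in either, the same way in both, the 10 largest of each within an origin, the 8 largest interactions among opposite calls, in each of 47 gene lists up to 4 members by the smallest p over both origins and, where over 3 were called within an origin, up to 3 by the smallest p there, and the transgene factors with the main Sertoli markers. The members and the lists were chosen with earlier results of these data known, and families by symbol prefix were chosen after values were seen. Lists are described by counts and medians, with no test. Alternatives covered the filter, the prior, the centring, unnamed features, the blocks, averaging and single arrays left out.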

Additional observations from a re-analysis of the deposited data

Results flagged for a closer look

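The difference between number 2 and number 1 itself differed between TTF-derived and MEF-derived ieSCs in 2446 of 15857 genes, by the limma interaction contrast at an adjusted p under 0.05. The 8 genes with the largest interaction among those called in opposite directions follow, each with the TTF-derived minus the MEF-derived log2 difference. They were -5.201 for Orm2, -4.908 for Orm1, -4.788 for Il13ra2 and -4.762 for Orm3. Lum gave -4.721, Aqp1 -4.374, Ptx3 -4.306 and Col23a1 -4.245. In each of the 8 both number 2 arrays lay below both number 1 arrays in TTF-derived ieSCs and above them in MEF-derived ieSCs. The MEF-derived calls of Aqp1, a difference of 0.25, and of Orm3 were lost without any 1 of the 4 MEF-derived arrays.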

How the results depend on the processing

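Over both origins together, the count of 2639 genes changed to 1529 with the name as a random block, to 0 with both arrays of a name averaged (limma; 1612 genes at an unadjusted p under 0.05) and to 4817 as the mean of the differences inside each origin. Leaving out single arrays gave 1578 to 1937 genes over both origins (1683 without TTF-derived 1a, 1578 without TTF-derived 1b, 1668 without MEF-derived 1a). Within an origin it gave 2416 to 3597 genes in TTF-derived ieSCs (2416 without 1a, 2598 without 1b) and 1844 to 3439 in MEF-derived ieSCs (1844 without 1a, 2007 without 1b, 2175 without 2b). For the interaction it gave 1528 to 2154 (1528 without TTF-derived 1a, 1541 without MEF-derived 1a, 1606 without MEF-derived 1b). The YB range as a replicate block gave 2216 genes over both origins, 4123 in TTF-derived and 3565 in MEF-derived ieSCs and 2570 for the interaction. The ranges were not shown to pair the arrays. No named difference changed sign between the main fit and an alternative where at least 1 of the 2 called it. Sign changes of differences called in neither were not counted. The counts within the 4 other whole-table settings (no filter, a filter on the mean, intensity trend with robust prior, re-centring) and with features without a symbol stayed within 1.5 times of the values given.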

Other observations

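Imprinted genes, which are expressed from 1 parental copy, gave 2 rises and 4 falls of 16 tested in TTF-derived ieSCs and 3 rises and 4 falls in MEF-derived ieSCs (2 falls without any 1 of the 4 MEF-derived arrays), against 11.5% and 13.1% of all genes in TTF-derived and 9.78% and 11.3% in MEF-derived ieSCs. Igf2, a fetal growth factor, stood at 6.79 and 6.81 in TTF-derived number 1, 6.23 and 6.21 in TTF-derived number 2, 8.38 and 8.34 in MEF-derived number 1 and 11.23 and 11.21 in MEF-derived number 2. The TTF-derived number 2 arrays were the lowest and the MEF-derived number 2 arrays the highest, with differences of -0.58 ± 0.06 and 2.86 ± 0.06 (limma adjusted p = 0.000788 and 3.74e-06). H19, the noncoding RNA of the same imprinted domain, went the same way, with -1.38 ± 0.10 and 0.84 ± 0.10, and Plagl1, a zinc finger factor, the other way, with 0.83 ± 0.10 and -1.12 ± 0.10. The difference between origins was called for all 3 (adjusted p = 1.31e-05, 0.00025 and 0.000412).

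The Pramel and Speer families, both expressed in germ cells or testis, were chosen after their values were seen. Of 20 tested Pramel genes 14 rose and 1 fell in TTF-derived and 7 rose and 8 fell in MEF-derived ieSCs. Of 10 Speer genes 5 rose and 4 fell in TTF-derived and 1 rose and 6 fell in MEF-derived ieSCs. The shares over all genes were 11.5% rising and 13.1% falling in TTF-derived and 9.78% and 11.3% in MEF-derived ieSCs. Members of each family are close in sequence and may share signal. Ifi202b, an interferon-inducible DNA sensor singled out after its values were seen, stood at 3.62 on array 1a and 15.25 on array 1b of TTF-derived number 1, although both carry the same name, and at 3.36 to 5.55 on the other 6 arrays; its TTF-derived difference of -5.91 ± 3.25 was not called (adjusted p = 0.247).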
